A study of Gallus gallus with 10 samples.

Results

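Blood pressure in vertebrates is set by the tone and volume of the vascular bed, and the kidney takes part in both through renin, angiotensin and kinin peptides and through the salt that its tubules take back. ADAMTS8, APLNR, WNK4 and PRCP act at different points of this system. ADAMTS8 is a secreted metalloproteinase of the extracellular matrix whose human locus is associated with blood pressure. APLNR is the G protein-coupled receptor of the peptides apelin and elabela, which in mammals lower vascular tone and oppose angiotensin II. PRCP is a serine carboxypeptidase that removes the last residue of peptides after proline, among them angiotensin II, and activates prekallikrein on mammalian endothelium. WNK4 is a kinase of the mammalian distal nephron that governs the thiazide-sensitive Na-Cl cotransporter, and its mutations cause a human hypertension with high potassium.

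These 4 genes of the 17108 genes in the count table were followed over all 10 kidney libraries. They were taken by identifier, and they had been selected for differences between Ca intakes measured in the same birds. ADAMTS8 had been selected for its slope on Ca and the pair of 0.8 and 1.2% Ca, APLNR for the pairs that include 0.8% Ca, PRCP for both pairs that include 1.0% Ca, and WNK4 for the pair of 1.0 and 1.2% Ca. The other pairs of ADAMTS8 are parts of its slope, and the slopes of APLNR and WNK4 use the pairs that selected them, so these were counted with the differences that selected the gene. The differences so counted are given here with their standard errors and no test, whereas the others were tested. The tested differences of APLNR and PRCP follow from those that selected the gene, and those of WNK4 share birds with its selecting pair. None of these tests is thus independent of the selection. The identifier of ADAMTS8 is paired with its name by the study, and the other 3 names were paired because a named locus of the study lies over that counted gene only.

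The birds were broilers, fast-growing meat chickens, given diets with 0.8% Ca (3 birds), 1.0% Ca (4 birds) or 1.2% Ca (3 birds). Every diet held 0.35% non-phytate phosphorus and added phytase, an enzyme that frees phosphorus from plant feed. Kidneys were taken at 21 days post-hatch from birds whose body weight lay near the mean of their treatment, and each library came from 1 bird. Replicates are numbered 1, 3 and 4 at 0.8% Ca. Whole kidney RNA was sequenced, so fewer cells of a type and less RNA per cell cannot be told apart in any difference below.

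Counted fragments per library ranged from 6176553 to 7857813, so that 1 fragment was worth 0.128 to 0.163 CPM. CPM, the unit of edgeR, are the fragments of a gene divided by the size of its library in units of 1000000, after library sizes were scaled by the trimmed mean of M-values (TMM). After the filter on low counts 12187 genes were tested, and all 4 genes passed it. Lane 1 held all birds of 1.2% Ca together with replicates 1 and 2 of 1.0% Ca, and lane 2 held the rest, so lane and diet can be separated only at 1.0% Ca. In the study's table of reads, replicate 1 at 0.8% Ca and replicate 3 at 1.0% Ca had the lowest alignment rates. None of the names in the lists for proximal tubule, distal tubule, loop of Henle and collecting duct could be paired with a counted gene, so the kidney label was not checked against its defining markers.

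By edgeR's quasi-likelihood test 0 of 12187 genes (0%) were called in each pair of groups at an adjusted p under 0.05 and for the slope at 0.1. At an unadjusted p under 0.05 there were 1034 genes from 0.8 to 1.0% Ca, 1075 from 0.8 to 1.2% Ca, 448 from 1.0 to 1.2% Ca and 1099 for the slope. The likelihood ratio test called 22, 19, 3 and 35 genes in this order and DESeq2 30, 36, 3 and 48, whereas limma-voom called 0 in each.

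For 1 of the genes, ADAMTS8, the study also designed primers for quantitative PCR, which are shown because they are the sequences by which that transcript was measured a second time.
ADAMTS8 forward primer: gcactatgacactgccatcct
ADAMTS8 reverse primer: cgtgtcgcagccttgatg
They are 21 and 18 bases long, with a GC content of 52.4% and 61.1%, and target the gene counted as ENSGALG00000001370 on chromosome 24. The PCR measurements themselves were not used here.

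Compared per length of exon, APLNR had the highest level over the 10 birds, 35.7 ± 14.4 CPM per kilobase (SD, n = 10). PRCP followed with 28.5 ± 9.73, WNK4 with 18.9 ± 11.6 and ADAMTS8 with 12.7 ± 3.59 CPM per kilobase (SD, n = 10 each). The gap between neighbours in this order was smaller than the larger of their SDs, but these SDs do not use that the genes share their libraries. Bird by bird, APLNR was above PRCP in every library but replicate 2 at 1.2% Ca. PRCP was above WNK4 in every library but replicate 3 at 1.0% Ca. WNK4 and ADAMTS8 changed order between birds. The order was not tested. At 0.8% Ca the level of APLNR, 51.9 ± 8.84 CPM per kilobase, stood above that of PRCP, 33.3 ± 8.81 (SD, n = 3 each). At 1.2% Ca PRCP had the higher mean, 33.3 ± 12.5, and APLNR was at 28.2 ± 15.7 (SD, n = 3 each). That higher mean came from replicate 2 at 1.2% Ca, with 35.0 for PRCP and 18.2 for APLNR. In replicates 1 and 3 at 1.2% Ca APLNR was slightly the higher, with 20.12 against 20.05 and 46.4 against 44.9. In CPM without length, the largest value was 2.19 times the smallest over all birds in ADAMTS8, 2.62 times in PRCP, 3.37 times in APLNR and 6.50 times in WNK4.

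**Figure D1:**
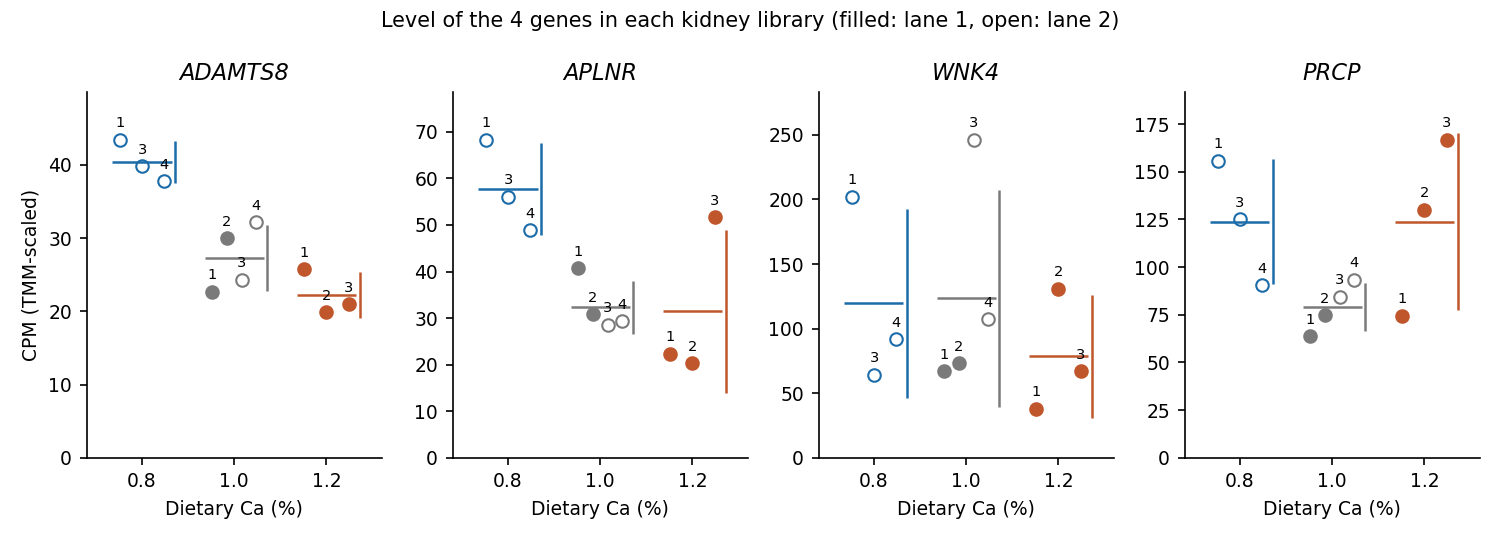
Level of ADAMTS8, APLNR, WNK4 and PRCP in CPM (vertical axis, starting at 0) in each kidney library by dietary Ca in percent (horizontal axis). Points are birds marked with their replicate number, filled for lane 1 and open for lane 2, horizontal lines are group means and vertical lines are ± 1 SD. The 3 birds at 0.8% Ca lie above all others for ADAMTS8, and the groups overlap widely for WNK4.

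ADAMTS8 was higher at 0.8% Ca than at either other intake. It belongs to a family of zinc proteases with thrombospondin motifs that cut proteoglycans of the matrix. ADAMTS8 (ENSGALG00000001370) lies on the minus strand of chromosome 24 at 1655304 to 1670221 of the Galgal4 build, with 10 exons and 2331 bases of exon. Its level was 43.4, 39.8 and 37.8 CPM in replicates 1, 3 and 4 at 0.8% Ca. Replicates 1 to 4 at 1.0% Ca had 22.7, 30.0, 24.3 and 32.2 CPM, and replicates 1 to 3 at 1.2% Ca had 25.8, 19.9 and 20.96 CPM. Every bird at 0.8% Ca was thus above every bird of both other groups, and the groups at 1.0 and 1.2% Ca overlapped.

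With 0.8% Ca, ADAMTS8 averaged 40.3 ± 2.85 CPM (SD, n = 3), with 1.0% Ca it averaged 27.3 ± 4.52 CPM (SD, n = 4), and with 1.2% Ca the mean was 22.2 ± 3.14 CPM (SD, n = 3). The log2 difference was −0.56 (SE 0.14) from 0.8 to 1.0% Ca, −0.86 (SE 0.16) from 0.8 to 1.2% Ca and −0.30 (SE 0.15) from 1.0 to 1.2% Ca. The slope over the whole range from 0.8 to 1.2% Ca was −0.86 (SE 0.15). These differences selected the gene or are parts of the slope that did, and carry no test. Of all tested genes, 6.69% had groups that did not overlap and a lower level at 1.0 than at 0.8% Ca, 8.34% did so at 1.2 against 0.8% Ca, and 3.1% had all 3 birds at 0.8% Ca above every other bird. Each of the 10 fits that left out 1 bird kept the sign of all 3 differences of ADAMTS8, with −0.98 to −0.79 from 0.8 to 1.2% Ca.

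The next gene below ADAMTS8 on the same strand, ENSGALG00000001346, moved with it bird by bird. This gene has no name in the sources used here, lies on chromosome 24 at 1652518 to 1654350 and is separated from ADAMTS8 by 953 bases. Its level was 31.2, 24.3 and 23.1 CPM in replicates 1, 3 and 4 at 0.8% Ca. It was 15.3, 19.5, 16.8 and 25.4 CPM in replicates 1 to 4 at 1.0% Ca and 16.5, 12.6 and 11.8 CPM in replicates 1 to 3 at 1.2% Ca. The bird with the most of it at each intake was also the bird with the most ADAMTS8, and the ratio of its CPM to that of ADAMTS8 stayed between 0.561 and 0.788.

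Over 10 birds the deviations of the pair from their group means had a Pearson r of 0.93 and a Spearman rho of 0.83, and without the 2 birds farthest from the median of ADAMTS8 the Pearson r was 0.85. Among 546 pairs of tested neighbours on the same strand less than 1000 bases apart, the median r was 0.13. An r at least as high was found in 6 pairs (1.10%), the pair of ADAMTS8 included. The neighbour's own log2 differences were −0.44 from 0.8 to 1.0% Ca (adjusted p = 0.586), −0.94 from 0.8 to 1.2% Ca (adjusted p = 0.394) and −0.50 from 1.0 to 1.2% Ca (adjusted p = 0.961), by edgeR's quasi-likelihood test. Whether its fragments and those of ADAMTS8 come from the same transcripts was not tested. On the other side of ADAMTS8, ENSGALG00000001407, 3131 bases away on the opposite strand, had an r of 0.02.

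APLNR was also highest at 0.8% Ca, and a bird at 1.2% Ca departed from its group. In mammals the receptor is found on endothelium, where its ligands act on vessel growth and tone. APLNR (ENSGALG00000004841) is counted over 1 exon of 1113 bases on the plus strand of chromosome 5, at 16355389 to 16356501 of Galgal4. Replicates 1, 3 and 4 at 0.8% Ca had 68.3, 56.1 and 48.8 CPM. Replicates 1 to 4 at 1.0% Ca had 40.8, 30.8, 28.6 and 29.3 CPM, and replicates 1 to 3 at 1.2% Ca had 22.4, 20.3 and 51.6 CPM. The groups at 0.8 and 1.0% Ca, a pair that selected the gene, did not overlap. The same held, with a lower level at 1.0% Ca, for 6.69% of all tested genes. Replicate 3 at 1.2% Ca, however, reached into the range of 0.8% Ca and lay above every bird at 1.0% Ca.

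The mean level of APLNR was 57.7 ± 9.84 CPM with 0.8% Ca (SD, n = 3), which compares with 32.4 ± 5.67 CPM (SD, n = 4) for the diet of 1.0% Ca and 31.4 ± 17.5 CPM (SD, n = 3) for that of 1.2% Ca. The log2 difference was −0.84 (SE 0.29) from 0.8 to 1.0% Ca and −0.87 (SE 0.32) from 0.8 to 1.2% Ca, both of which selected the gene. From 1.0 to 1.2% Ca, a pair that did not select it but shares its birds with those that did, the log2 difference was −0.04 (SE 0.30, 95% interval −0.70 to 0.62), with an adjusted p of 0.991 by edgeR's quasi-likelihood test, which called 0% of all genes in this pair. The difference from 1.0 to 1.2% Ca is the gap between the selecting ones, so its test is not independent of the selection. Replicate 3 at 1.2% Ca decided much of these values. Without it the log2 difference became −1.43 from 0.8 to 1.2% Ca and −0.60 from 1.0 to 1.2% Ca, while without replicate 2 at 1.2% Ca the latter became 0.20.

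The names that the lists for endothelium could supply were KLF2, a transcription factor induced by blood flow, and APOLD1, an endothelial protein, which are 2 of 12 markers. Both were named by the study for differences in these birds. Their summed level was 325 to 519 CPM at 0.8% Ca, 215 to 430 CPM at 1.0% Ca and 167 to 253 CPM at 1.2% Ca, and so was highest where APLNR and ADAMTS8 were highest. Neither passed the quasi-likelihood test in a pair of groups, where it called 0% of all tested genes. Its adjusted p was 0.359 for KLF2 and 0.537 for APOLD1 from 0.8 to 1.2% Ca, where their log2 differences were −1.001 and −1.40. Over the 10 birds, deviations of APLNR had a Pearson r of 0.66 (Spearman 0.79) with APOLD1 and 0.41 (Spearman 0.54) with KLF2, and those of ADAMTS8 had 0.45 and 0.63. These values were not particular to APLNR and ADAMTS8, since PRCP had 0.64 (Spearman 0.64) with APOLD1 and 0.49 (Spearman 0.55) with KLF2. For WNK4 they were 0.03 and −0.23. The part of endothelial RNA in the differences of APLNR, ADAMTS8 and PRCP was not tested. PECAM1, CDH5 and the other 8 defining markers were not identified among the counted genes.

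PRCP was lowest at 1.0% Ca and had nearly the same mean at the other intakes. Apart from angiotensin II, the enzyme cleaves angiotensin III and the melanocortin alpha-MSH in mammals. PRCP (ENSGALG00000017247) lies on the minus strand of chromosome 1 at 188219969 to 188248544 of Galgal4, with 9 exons and 3714 bases of exon. It was at 156, 125 and 90.4 CPM in replicates 1, 3 and 4 at 0.8% Ca. Replicates 1 to 4 at 1.0% Ca had 63.7, 74.8, 84.5 and 93.4 CPM, and replicates 1 to 3 at 1.2% Ca had 74.5, 130 and 167 CPM. The 1.0% Ca group overlapped with both others, since replicate 4 at 0.8% Ca and replicate 1 at 1.2% Ca lay within its range.

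PRCP averaged 79.1 ± 12.8 CPM in birds given 1.0% Ca (SD, n = 4). Birds given 0.8% Ca averaged 123.8 ± 32.7 CPM (SD, n = 3), and those given 1.2% Ca averaged 123.8 ± 46.5 CPM (SD, n = 3). The differences that selected it were −0.64 (SE 0.26) from 0.8 to 1.0% Ca and 0.65 (SE 0.26) from 1.0 to 1.2% Ca on the log2 scale. The difference from 0.8 to 1.2% Ca was 0.0014 (SE 0.28, 95% interval −0.62 to 0.62), with an adjusted p of 0.9996, and the slope over that range was 0.0029 (SE 0.33), with an adjusted p of 0.999, both by edgeR's quasi-likelihood test, which called 0% of all genes in either. These tests share their birds with the selecting pairs, and the difference from 0.8 to 1.2% Ca is the sum of both selecting differences. A fall followed by a rise was selected for, which draws this sum toward 0. The tests therefore cannot show that the outer intakes are alike. In the fits that left out 1 bird the difference from 1.0 to 1.2% Ca stayed between 0.37 and 0.91, the lowest without replicate 3 at 1.2% Ca, and that from 0.8 to 1.0% Ca between −0.83 and −0.44.

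**Figure D2:**
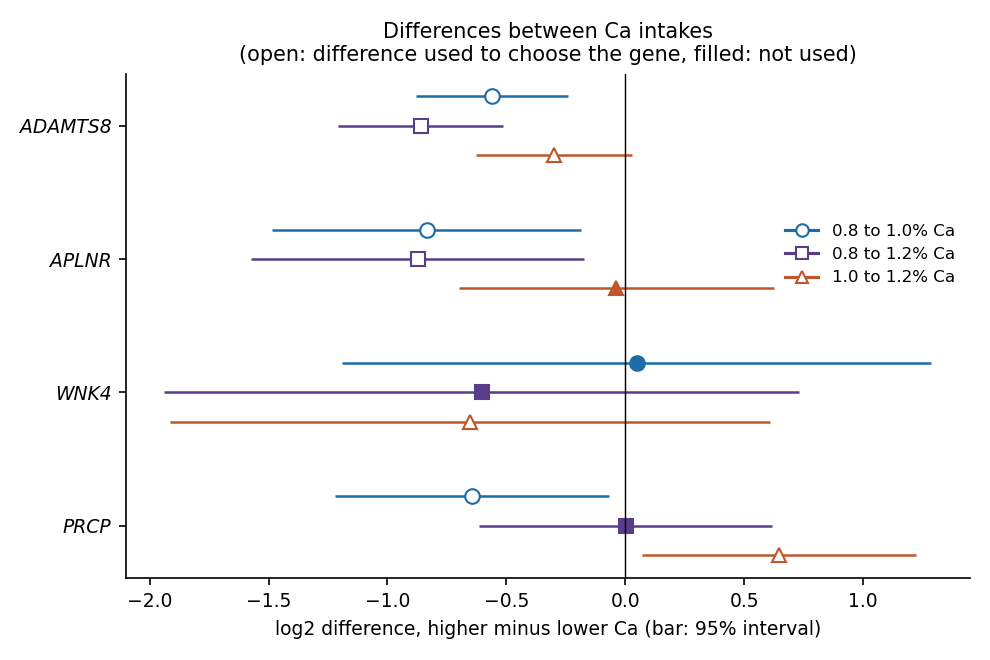
log2 differences of the 4 genes between Ca intakes (horizontal axis, higher minus lower Ca, bars are 95% intervals of the edgeR fit). Open symbols are differences that selected the gene and carry no test, and filled symbols are those that did not, of which none passed. The interval of PRCP from 0.8 to 1.2% Ca runs from −0.62 to 0.62, and the intervals of WNK4 are the widest.

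Levels of PRCP followed those of 2 of 5 identified leukocyte genes, as did those of WNK4. Of the 8 heterophil and macrophage markers, 5 were identified, all named by the study for differences in these birds. Their summed level was 361 to 603 CPM at 0.8% Ca, 310 to 523 CPM at 1.0% Ca and 728 to 981 CPM at 1.2% Ca. None of the 5 passed the test in a pair of groups, where it called 0% of all tested genes. SPI1, the transcription factor PU.1 of myeloid and B cells, was at 60.3 to 167 CPM at 1.2% Ca. Its deviations had a Pearson r of 0.84 with PRCP over 10 birds (Spearman 0.78). Without the 2 birds farthest from the median deviation of PRCP the Pearson r was 0.76. LY86, a partner protein of a receptor of B cells and macrophages, had a Pearson r of 0.80 (Spearman 0.77, and Pearson 0.59 without those birds). WNK4 had a Pearson r of 0.78 with SPI1 (Spearman 0.83) and of 0.71 with LY86 (Spearman 0.72). Without the 2 birds farthest from the median deviation of WNK4, the Pearson r were 0.75 and 0.64. For APLNR the Pearson r with SPI1 and LY86 were 0.39 and 0.49, and for ADAMTS8 −0.42 and −0.57.

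The 3 granule and heterophil genes of the same list did not go with PRCP or WNK4 in this way. LECT2, a chemotactic protein of liver and heterophils, had an r of −0.25 with PRCP. The beta-defensins GAL1 and GAL2 had −0.09 and −0.06 with it. With WNK4 the Pearson r were −0.43 for LECT2, −0.33 for GAL1 and −0.28 for GAL2. Without the 2 birds farthest from the median deviation of WNK4 they were −0.77, −0.61 and −0.65. The highest level of SPI1 was in replicate 3 at 1.2% Ca, the bird with the most PRCP, and the lowest was in replicate 2 at 1.0% Ca, with 57.3 CPM. High values were not particular to leukocyte genes. The matrix proteoglycan gene VCAN had a Pearson r of 0.68 with PRCP (Spearman 0.76, and Pearson 0.79 without 2 birds). With WNK4 it had 0.64 (Spearman 0.76, and Pearson 0.57 without 2 birds). The part of leukocyte RNA in the levels of PRCP and WNK4 was not tested.

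WNK4 varied more between birds of the same diet than between diets. In mammals the kinase acts on the cotransporter through the kinases STK39 and OXSR1, and its amount is held down by KLHL3 and CUL3, none of which could be paired with a counted gene. WNK4 (ENSGALG00000002986) lies on the plus strand of chromosome 27 at 5039150 to 5051893 of Galgal4, with 20 exons and 5748 bases of exon. Replicates 1, 3 and 4 at 0.8% Ca had 202, 64.3 and 91.9 CPM. Replicates 1 to 4 at 1.0% Ca had 67.0, 73.4, 246 and 107 CPM, and replicates 1 to 3 at 1.2% Ca had 37.9, 131 and 67.0 CPM. Each diet had a bird far above the rest, and all pairs of groups overlapped.

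WNK4 averaged 119 ± 72.9 CPM in birds given 0.8% Ca (SD, n = 3), 123 ± 83.7 CPM in those given 1.0% Ca (SD, n = 4) and 78.6 ± 47.5 CPM in those given 1.2% Ca (SD, n = 3). The log2 difference that selected it, from 1.0 to 1.2% Ca, was −0.65 (SE 0.57). It was −0.07 when replicate 3 at 1.0% Ca was left out, and −1.23 when the bird left out was replicate 2 at 1.2% Ca. The tested differences, which share birds with that pair, were 0.05 from 0.8 to 1.0% Ca (SE 0.56, 95% interval −1.19 to 1.29, adjusted p = 0.988) and −0.60 from 0.8 to 1.2% Ca (SE 0.60, 95% interval −1.94 to 0.73, adjusted p = 0.788) by edgeR's quasi-likelihood test. Without both libraries of the lowest alignment rate, a choice made after seeing the data, the differences of WNK4 were 0.08 from 0.8 to 1.0% Ca, 0.0069 from 0.8 to 1.2% Ca and −0.07 from 1.0 to 1.2% Ca. In the same order this exclusion left ADAMTS8 at −0.46, −0.81 and −0.35, APLNR at −0.65, −0.74 and −0.09, and PRCP at −0.48, 0.20 and 0.68.

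The spread between birds set WNK4 apart from the other genes. The SD of log2 CPM within groups was 0.86 for WNK4, 0.44 for APLNR, 0.41 for PRCP and 0.20 for ADAMTS8. Among the 1000 tested genes nearest in mean CPM, 99.2% had a smaller spread than WNK4, 94.2% a smaller one than APLNR, 94.0% a smaller one than PRCP and 51.7% a smaller one than ADAMTS8. Each library held at least 139 fragments of each gene. For WNK4 the counting error alone would give a coefficient of variation of 3.83% to 4.54% within a group, against 60.5% to 67.8% between birds. For ADAMTS8 these were close only at 0.8% Ca, with 6.11% from counting and 7.07% between birds. They were 7.42% and 16.6% at 1.0% Ca, and 7.83% and 14.1% at 1.2% Ca.

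WNK4 went up where the share of mitochondrial fragments went down. The 37 genes of the mitochondrial chromosome held 2.52% of the fragments of replicate 1 at 0.8% Ca and 2.53% of those of replicate 3 at 1.0% Ca, the libraries with the most WNK4 and the lowest alignment rates. Next came replicate 2 at 1.2% Ca with 2.59% and replicate 4 at 1.0% Ca with 2.64%, and the other 6 libraries had 2.91% to 3.03%. The Pearson r of the deviations of WNK4 and of this share was −0.89 over 10 birds (Spearman −0.64), and −0.82 without the 2 birds farthest from the median of WNK4. For ADAMTS8, APLNR and PRCP the same Pearson r was −0.01, 0.27 and −0.54. The mean mitochondrial share was 2.82 ± 0.260% (SD, n = 3), 2.75 ± 0.196% (SD, n = 4) and 2.88 ± 0.248% (SD, n = 3) from the lowest to the highest Ca intake, and its part in the level of WNK4 was not tested.

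Many genes shared the pattern of WNK4 over the birds. Of the 12186 other tested genes, 495 (4.06%) had a Pearson r of deviations above 0.9 with WNK4 and 153 were below −0.9, compared with 52 and 6 for APLNR, 34 and 32 for PRCP, and 5 and 7 for ADAMTS8. The genes that followed WNK4 had a median exon length of 3055 bases and a median level of 91.2 CPM, against 2287 bases and 32.9 CPM over all tested genes. Genes with an r above 0.9 to the other members had a median exon length of 2918 bases for PRCP, 2029 for APLNR and 2003 for ADAMTS8. The median levels of these sets were 40.7, 92.7 and 19.6 CPM in this order. A high level was thus not particular to the genes that followed WNK4. The genes that followed WNK4 held 7.81% of the fragments of replicate 1 at 0.8% Ca and 8.84% of those of replicate 3 at 1.0% Ca. They held 4.97% for replicate 1 at 1.2% Ca, the bird with the least WNK4. These genes were picked for following WNK4 in the same birds, so a share that rises with WNK4 is set by that choice. Their median ratio of highest to lowest CPM was 1.82, smaller than the 6.50 of WNK4.

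The most alike gene was ENSGALG00000013021 on chromosome 2 (r = 0.99) and the most opposed ENSGALG00000002863 on chromosome 13 (r = −0.99), of 12186 genes compared over 10 birds. Of 148 named genes, NUP98, a component of the nuclear pore, was most like WNK4 (r = 0.99, between 117 and 319 CPM), and NCAPG, a condensin subunit that packs mitotic chromosomes, was most opposed (r = −0.93). The gene after WNK4 on the other strand, ENSGALG00000002973, 3845 bases away, had an r of 0.78, which was 0.47 without the 2 birds farthest from the median of WNK4.

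**Figure D3:**
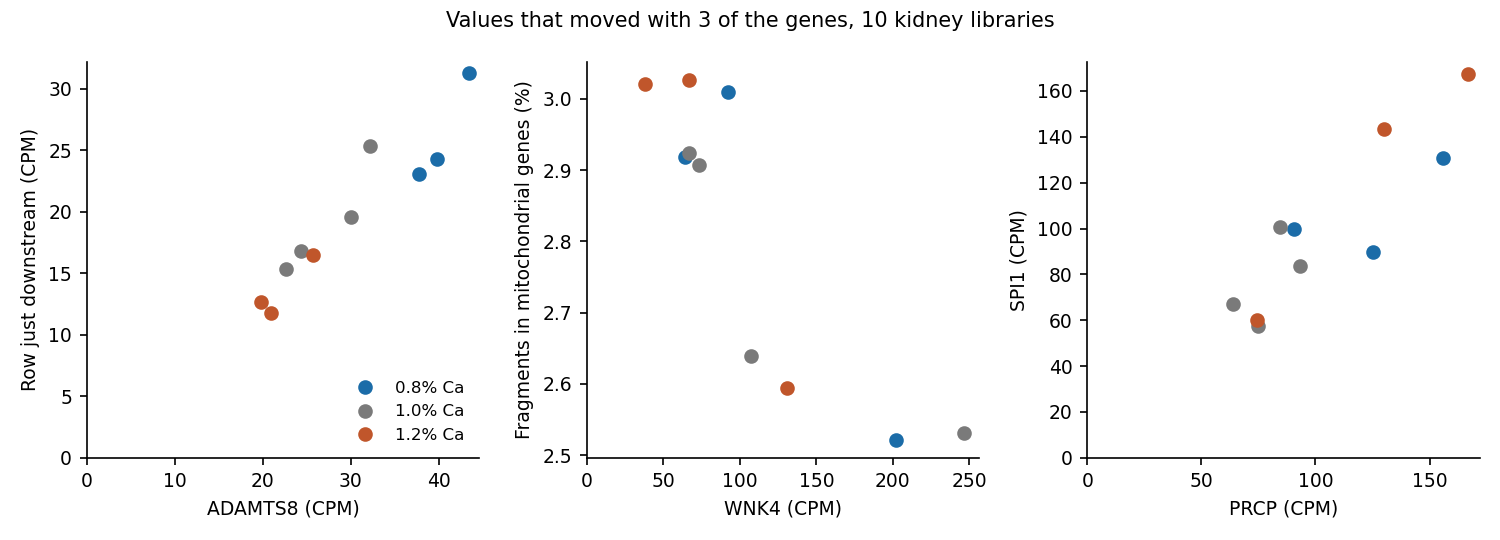
Values that moved with ADAMTS8, WNK4 and PRCP in 10 kidney libraries, 1 point per bird, with the gene in CPM on the horizontal axis. The vertical axes are the CPM of ENSGALG00000001346, the row just downstream of ADAMTS8, the percentage of fragments in mitochondrial genes (axis not starting at 0) and the CPM of SPI1. The left and right panels rise, and the 2 birds highest in WNK4 have the lowest mitochondrial share, 2.52% and 2.53%. SPI1 is drawn because it had the highest r with PRCP of the 5 identified heterophil and macrophage markers. LECT2, GAL1 and GAL2 of that list had −0.25, −0.09 and −0.06 with PRCP. SPI1 also had a Pearson r of deviations of 0.78 with WNK4, which is not drawn.

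For the other genes the pattern most alike was as follows, each by the Pearson r of deviations over 10 birds. Each value is the extreme of 12186 genes compared, or of 148 named genes, and a search of that size over 10 birds yields high values by itself. No r was tested. For ADAMTS8 the levels, before the group means were taken out, had an r of only 0.13 with ENSGALG00000017251 and 0.15 with ENSGALG00000004994. ADAMTS8 was most like ENSGALG00000017251 (r = 0.93) and most opposed to ENSGALG00000004994 (r = −0.95), and among named genes NPTX2, a secreted neuronal pentraxin, had an r of 0.82 and CDH10, a cadherin, one of −0.92. APLNR was most like ENSGALG00000007054 (r = 0.96) and opposed to ENSGALG00000008092 (r = −0.94), and among named genes SLCO2A1, a prostaglandin transporter, had an r of 0.89 and ISG12(2), an interferon-stimulated gene, one of −0.82. PRCP was most like ENSGALG00000004400 (r = 0.97) and opposed to ENSGALG00000012525 (r = −0.96), and among named genes Ex-FABP, a secreted lipocalin of the chicken, had an r of 0.94 and SPON2, a matrix protein, one of −0.85. Without the 2 birds farthest from the median deviation of the gene, these r kept their sign, with −0.58 for ISG12(2) and −0.65 for SPON2 the nearest to 0.

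Among themselves the genes were only loosely related from bird to bird. The highest Pearson r of deviations was 0.58 between WNK4 and PRCP (Spearman 0.68), followed by 0.49 between APLNR and PRCP (Spearman 0.42). They were 0.55 and 0.49 without the 2 birds farthest from the median deviation of the first gene. ADAMTS8 had an r of −0.20 with APLNR, −0.24 with WNK4 and −0.03 with PRCP, and APLNR had −0.11 with WNK4. The levels of ADAMTS8 and APLNR, before the group means were taken out, had an r of 0.61, since both were highest at 0.8% Ca. All 6 pairs were computed over the same 10 libraries, and 5 birds in each lane were too few for a value within lanes.

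Within 1.0% Ca, where diet and lane are not mixed, the lane 1 birds had less WNK4 than the lane 2 birds, 67.0 and 73.4 CPM against 246 and 107 CPM. The log2 difference from lane 2 to lane 1 was −1.33 (SE 0.65), with an unadjusted p of 0.068 and an adjusted p of 0.649 by edgeR's quasi-likelihood test. Birds of both lanes did not overlap with a lower level in lane 1 for 20.4% of all tested genes, and 0 genes (0%) were called by that test, with 903 at an unadjusted p under 0.05. The other differences by lane were −0.10 for ADAMTS8, 0.30 for APLNR and −0.36 for PRCP, with adjusted p of 0.899, 0.842 and 0.776.

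Compared within a lane, ADAMTS8 had a log2 difference of −0.51 (SE 0.18) from 0.8 to 1.0% Ca in lane 2 and of −0.25 (SE 0.18) from 1.0 to 1.2% Ca in lane 1. APLNR had −0.995 (SE 0.37) and −0.18 (SE 0.36) in these comparisons, and PRCP had −0.48 (SE 0.31) and 0.84 (SE 0.32). WNK4 was the gene whose direction turned, with 0.57 (SE 0.57) from 0.8 to 1.0% Ca in lane 2 and 0.16 (SE 0.59) from 1.0 to 1.2% Ca in lane 1, against −0.65 over both lanes. Each of these values rests on 2 birds at 1.0% Ca, and from 0.8 to 1.2% Ca lane and diet cannot be told apart without the birds at 1.0% Ca.

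**Figure D4:**
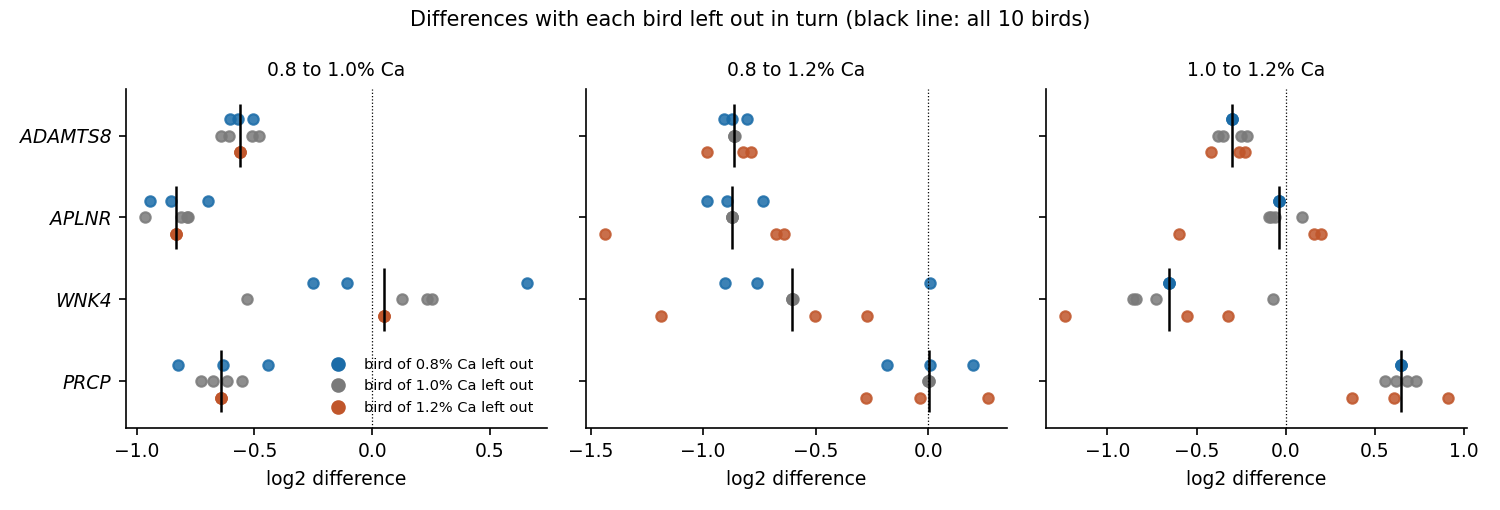
log2 differences of the 4 genes (horizontal axis, higher minus lower Ca) in 3 pairs of Ca intakes when each bird is left out in turn. Points are fits without 1 bird, coloured by the diet of that bird, and black lines are fits with all 10 birds. All points of ADAMTS8 stay below 0, whereas those of WNK4 cross 0 from 0.8 to 1.0% Ca and APLNR has 1 point apart at −1.43 from 0.8 to 1.2% Ca.

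The median log2 difference over all genes was 0.01 both from 0.8 to 1.0% Ca and from 0.8 to 1.2% Ca, with 5799 and 5891 of 12187 genes lower. Over the 4 genes it was −0.60 and −0.73, with 3 lower in each pair. The 3 that were lower from 0.8 to 1.0% Ca, and ADAMTS8 and APLNR from 0.8 to 1.2% Ca, had been selected for or counted with those differences, so nothing is read from these counts.

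The other genes of these pathways were mostly not identified by name. Of the lists for apelin (3 names), renin and angiotensin (11), kallikrein and kinin (8), WNK and salt transport (21) and ADAMTS proteases with their substrates (16), the only counted genes paired with a name were the 4 genes themselves and VCAN, the proteoglycan versican that ADAMTS proteases cut. VCAN had log2 differences of −0.21 from 0.8 to 1.0% Ca, 0.45 from 0.8 to 1.2% Ca and 0.66 from 1.0 to 1.2% Ca, with adjusted p of 0.785, 0.577 and 0.961 by edgeR's quasi-likelihood test. Its deviations had a Pearson r of −0.04 with ADAMTS8, 0.44 with APLNR, 0.64 with WNK4 and 0.68 with PRCP. None of the 13 names for renal Ca transport was identified.

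For vascular tone 5 of 16 names were identified, and 0 of 5 passed the test in any pair, where it called 0% of all tested genes. Besides KLF2 and APOLD1 they were PTGDS, which makes prostaglandin D, Nox2, the superoxide-forming oxidase of phagocytes, and PDE1C, a phosphodiesterase of cyclic nucleotides. PTGDS was at 27.6 to 120 CPM at 0.8% Ca, 15.9 to 56.4 CPM at 1.0% Ca and 20.1 to 79.4 CPM at 1.2% Ca, and had the highest r of the 5 with APLNR, 0.73 (Spearman 0.82, and Pearson 0.71 without 2 birds). Nox2 had an r of 0.76 with PRCP (Spearman 0.59, and Pearson 0.60 without 2 birds) and PDE1C one of −0.64. With WNK4 the Pearson r was 0.64 for Nox2 and −0.51 for PDE1C. The 5 genes were themselves named by the study for differences in these birds.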

How the data were processed

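The authors trimmed read pairs with Trimmomatic, used HISAT2 2.0.4 with the Galgal4 genome and featureCounts 1.5.0-p3 with the exons of Ensembl 84. The deposited values are raw counts, not normalized. Per the file headers no strand option was set, so fragments of both strands were counted together. The labels name a stranded kit and the methods one not described as stranded. Lanes follow the file headers, which name 2, whereas the methods describe 1.

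Counts were analysed with edgeR 4.0.16 in R 4.3.3: filterByExpr at its minimum of 10 counts, TMM scaling and a quasi-likelihood fit to all 10 libraries. Tests were two-sided with Benjamini-Hochberg adjustment over all 12187 genes, at 0.05 for pairs and 0.1 for the slope. SE is the log2 difference over the square root of F. Correlations used log2 CPM (prior count 2) minus the mean of the Ca group, with no test. Where 2 birds were left out, they were those whose deviations of the member lay farthest from the median deviation. P-values measure the spread between birds, 3 or 4 in each group.

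As alternatives, other tests (DESeq2 1.42.0, the likelihood ratio test, voom of limma 3.58.1), other scalings (upper quartile, RLE, none), filters (none, or 1 CPM in 3 libraries) and models (a lane term, a replicate block, pairs alone) were run. Each bird was left out in turn, and values relative to GAPDH, TPM and correlations of levels were computed. Leaving out both libraries of the lowest alignment rate, names by a locus over 1 gene, the mitochondrial share, the neighbouring pairs and correlations without 2 birds were added after seeing the data. The members and lists were chosen with earlier results of these data known.

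Named genes are the 4 genes, their neighbours on the chromosome, the most alike and most opposed gene overall and among named ones, and identified list members, up to 4 per list by level, with the fifth of 2 lists added after its values were seen. Of 17108 identifiers, 0 were found in the RefSeq table, and 153 genes took a name from the study's lists. The methods were also run on simulated counts, drawn with no lane effect and no pattern shared between genes. That run cannot show how they perform on data with such patterns. Figures were made with Python 3.11.15 and Matplotlib 3.10.9.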

Additional observations from a re-analysis of the deposited data

How the results depend on the processing

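The limits are 3 or 4 birds per diet, lanes that separate 0.8 from 1.2% Ca, and counting without strand, which does not separate fragments of the opposite strand. ADAMTS8 in every comparison, APLNR in those with 0.8% Ca and PRCP in both pairs with 1.0% Ca kept their direction under every alternative run. No tested difference of a gene passed the threshold under any alternative. The causes of the changes below were not tested.

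Genes called by the quasi-likelihood test numbered 0 in each comparison, against 22 from 0.8 to 1.0% Ca, 19 from 0.8 to 1.2% Ca, 3 from 1.0 to 1.2% Ca and 35 for the slope by the likelihood ratio test, and 30, 36, 3 and 48 by DESeq2. With each pair fitted alone, 1 gene was called from 0.8 to 1.0% Ca. When 1 bird was left out, the counts ranged from 0 to 2, 0 to 0, 0 to 1 and 0 to 44 in this order. The 44 came without replicate 3 at 1.2% Ca, the 2 without replicate 2 at 1.2% Ca, and the 1 without that bird or without replicate 3 at 1.0% Ca.

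With 1 bird left out, WNK4 ranged from −0.53 to 0.66 from 0.8 to 1.0% Ca, from −1.18 to 0.0061 from 0.8 to 1.2% Ca, from −1.23 to −0.07 from 1.0 to 1.2% Ca and from −1.03 to −0.14 for the slope, and APLNR from −0.60 to 0.20 from 1.0 to 1.2% Ca, from −1.43 to −0.64 from 0.8 to 1.2% Ca and from −1.46 to −0.69 for the slope. PRCP ranged from −0.27 to 0.26 from 0.8 to 1.2% Ca and from −0.35 to 0.29 for the slope. With lane as a covariate WNK4 became 0.73 from 0.8 to 1.2% Ca, 0.16 from 1.0 to 1.2% Ca and 0.74 for the slope, and PRCP became 0.36 from 0.8 to 1.2% Ca and 0.35 for the slope. Without both libraries of the lowest alignment rate WNK4 was 0.0069 from 0.8 to 1.2% Ca. PRCP, near 0 in the comparison of 0.8 and 1.2% Ca, turned to −0.00017 by DESeq2, −0.038 by limma-voom (slope −0.033), −0.0044 with upper-quartile factors (slope −0.0028), −0.0059 with pairs fitted alone and −0.076 relative to GAPDH, where its slope was also −0.076. Relative to GAPDH, which had 486 to 710 CPM, ADAMTS8 was at −0.53 from 1.0 to 1.2% Ca.

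Birds with the same replicate number did not deviate together, with a correlation across genes of −0.41 to 0.32 over 8 same-numbered pairs. The main fit did not treat them as paired. These values cannot show whether same-numbered birds shared a step of handling. With the replicate number as a block, WNK4 was −0.15 from 0.8 to 1.0% Ca and PRCP was −0.090 from 0.8 to 1.2% Ca and −0.11 for the slope, and 0 genes were called.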
